A study of Rattus norvegicus with 4 samples.

Results

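The genes described here are 10 markers of fibroblasts, mural cells and neighbouring interstitial cells of the heart: Tcf21, Thy1, Fap, S100a4, Vim, Cspg4, Mcam, Rgs5, Cd34 and Wt1. They were taken by name from a table of 17147 genes. RNA was sequenced from neonatal rat ventricular myocytes, a primary culture of heart muscle cells from the ventricles of newborn rats, grown without serum. The culture was exposed for 48 h to 3 µM TMP195, a small molecule that occupies the catalytic site of class IIa histone deacetylases, or to its solvent DMSO. There were 2 libraries with TMP195 and 2 with vehicle, and the labels do not say whether they came from separate cultures, so the p-values rest on a spread between libraries that may be technical only. The sources used here do not give the strain, the pooling of animals or the share of other cells in the culture.

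A myocyte culture made by digesting a ventricle carries some of the heart's other cells. Fibroblasts make most of the interstitial matrix, mural cells (pericytes and smooth muscle cells) wrap the vessels, endothelial cells line them, and the epicardium covers the surface and gives rise to many fibroblasts and mural cells during development. None of these markers is exclusive to a single cell type. If every marker came from the same cells and only the number of those cells differed between treatments, all of them would change by the same factor, which is the question put to the data below. In RNA from a whole culture, fewer cells of a type and less RNA per cell cannot be told apart.

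With TMP195, 5 of the 9 markers that could be tested were lower and 0 were higher at a limma adjusted p (Benjamini-Hochberg over all genes) under 0.05. They were S100a4, Mcam, Cspg4, Tcf21 and Vim, and their levels with TMP195 were 0.603, 0.644, 0.674, 0.683 and 0.817 times those with vehicle. Over all 12689 genes tested, 10.3% were lower and 9.93% were higher. The 5 had mean values of 625 or more. Of genes with a mean value from 100 to 1000, 12.5% were lower, and of those at 1000 or more, 16.6%. No marker had an unadjusted p under 0.05 in the upward direction in this fit or in limma-voom. With all 4 libraries, the fall of Vim was smaller than that of S100a4, Mcam and Cspg4 beyond the error of the difference, so a single factor did not describe the 5. This depended on the libraries: without vehicle 2, the intervals of all 9 markers held a shared value. That fit has 1 residual degree of freedom and wider intervals. In it Vim changed by -0.31 on the log2 scale, and S100a4, Mcam and Cspg4 by -0.66, -0.65 and -0.59. The 4 other markers tested, Fap, Thy1, Rgs5 and Wt1, rested on at most 117 fragments per library. Cd34 was listed at 0.

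The deposited values are fragment counts scaled by the authors, so that a value of 100 stands for about 100 sequenced fragments. The libraries held 14232152 and 13097078 fragments with TMP195, and 12902269 and 11768452 with vehicle. The culture carried heart muscle transcripts at high level: Myh6, the alpha myosin heavy chain, averaged 77484 with TMP195 and 75806 with vehicle.

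The promoters of 3 genes are shown because these genes span the falls that passed the test: S100a4 fell most, Vim least, and Cspg4 lay between them. RefSeq promoter windows on rat build GRCr8, from 250 bases before to 50 bases after the annotated start, were found for 8 of the 10 markers. Capitals mark 3 core promoter motifs found on either strand: the TATA box (TATAAA), the GC box (GGGCGG) and the CCAAT box (CCAAT). The windows lie at chr2:178388279-178388578 on the plus strand for S100a4, at chr17:81577011-81577310 on the plus strand for Vim, and at chr8:66160692-66160991 on the plus strand for Cspg4.
S100a4: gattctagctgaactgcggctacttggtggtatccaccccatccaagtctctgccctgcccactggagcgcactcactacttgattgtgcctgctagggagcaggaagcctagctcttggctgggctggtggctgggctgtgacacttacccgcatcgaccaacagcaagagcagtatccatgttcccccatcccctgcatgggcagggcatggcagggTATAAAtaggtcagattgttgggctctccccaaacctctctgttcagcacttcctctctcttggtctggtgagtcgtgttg
Vim: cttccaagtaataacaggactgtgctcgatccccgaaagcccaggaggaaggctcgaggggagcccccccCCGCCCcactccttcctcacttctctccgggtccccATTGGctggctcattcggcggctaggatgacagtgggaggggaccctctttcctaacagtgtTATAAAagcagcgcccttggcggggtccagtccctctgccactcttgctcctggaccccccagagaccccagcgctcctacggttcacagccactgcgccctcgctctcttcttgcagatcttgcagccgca
Cspg4: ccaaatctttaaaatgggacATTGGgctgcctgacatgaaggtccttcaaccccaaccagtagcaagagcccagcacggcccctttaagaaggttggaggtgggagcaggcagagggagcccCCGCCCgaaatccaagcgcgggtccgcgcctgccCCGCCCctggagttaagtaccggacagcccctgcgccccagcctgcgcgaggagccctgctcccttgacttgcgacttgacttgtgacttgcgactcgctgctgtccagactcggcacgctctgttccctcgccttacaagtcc
The S100a4 window holds a TATA box at -31 from the annotated start and neither of the other motifs. The Vim window holds all 3, with its TATA box at -82. The Cspg4 window holds GC boxes at -128 and -94 and a CCAAT box at -230, and no TATA box. Of all 33469 windows in the table, 14.2% hold a TATA box, 33.1% a GC box and 37.5% a CCAAT box. Among the 8 windows of the markers, 2 hold a TATA box, 4 a GC box and 2 a CCAAT box. An E-box (CANNTG), the kind of sequence that basic helix-loop-helix factors such as Tcf21 bind, stands in 3 of the 8 (Fap, Cd34 and Wt1), against 72.1% of all windows. Matches to the MEF2 site, the AP-1 site (TGANTCA) and the CArG box of SRF, all searched on both strands, number 0 among the 8, against 3.29%, 7.33% and 1.64% of all windows. Such a match is a match of letters and not a measured binding site.

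S100a4, a small calcium-binding protein also called fibroblast-specific protein and known from leukocytes and vessel cells too, had the largest fall of the set that passed the test. Its values were 3222 and 3531 with TMP195, against 5328 and 5868 with vehicle. Both TMP195 libraries lay far below both vehicle libraries, and the gap was several times the spread within a treatment. On the log2 scale the change was -0.73 with an SE of 0.07, and the limma adjusted p was 1.03e-08.

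Vim encodes vimentin, the intermediate filament of mesenchymal cells, which endothelial cells and leukocytes also contain. It had the highest deposited values of the set, 15865.5 and 15826.1 with TMP195, against 19627.5 and 19183.5 with vehicle. The groups did not overlap, and the TMP195 libraries were almost equal to each other. The fall was the smallest of those that passed, at -0.29 on the log2 scale with an SE of 0.07 (limma adjusted p = 0.00163).

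Tcf21, a transcription factor that the epicardium needs to form cardiac fibroblasts, had values of 480.7 and 532.3 with TMP195, against 684.6 and 802.5 with vehicle. The libraries of the groups did not overlap, although in relative terms the vehicle libraries stood further apart than for the other markers that passed. On the log2 scale Tcf21 changed by -0.55 with an SE of 0.11 (limma adjusted p = 0.00038).

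Fap and Thy1 were low in this culture. Fap, a membrane protease of activated fibroblasts, had values of 19.3 and 22.1 with TMP195, against 43.6 and 30.5 with vehicle. These are 22 and 23 fragments with TMP195, against 46 and 29 with vehicle. The groups did not overlap, yet Fap did not pass the test (log2 fold change -0.79, SE 0.41; limma adjusted p = 0.183). Thy1, the surface glycoprotein CD90 used to sort cardiac fibroblasts, had values of 27.2 and 40.3 with TMP195, against 38.9 and 54.8 with vehicle. Its groups overlapped, and it did not pass either (log2 fold change -0.47, SE 0.36; limma adjusted p = 0.408). Counting error alone allows a ratio of TMP195 to vehicle of 0.372 to 0.809 for Fap and of 0.524 to 0.991 for Thy1 (exact binomial, 95%), so neither was measured closely enough to place it against the better covered markers. Such intervals cover counting error only.

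The mural cell markers Cspg4 and Mcam had fitted falls close to each other. Cspg4, the proteoglycan NG2 of pericytes and smooth muscle cells, had values of 986.9 and 924.6 with TMP195, against 1439 and 1395 with vehicle. Mcam, the adhesion molecule CD146 of pericytes and endothelium, had values of 968.4 and 961 with TMP195, against 1511 and 1485 with vehicle. For both genes the libraries within a treatment were close together and the treatments were far apart. The log2 fold change was -0.57 for Cspg4 (SE 0.09; limma adjusted p = 1.18e-05) and -0.63 for Mcam (SE 0.09; limma adjusted p = 1.55e-06). The difference between them, Cspg4 minus Mcam, was 0.07 on the log2 scale (95% interval -0.18 to 0.32). An interval of this width does not show that they fell alike.

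Rgs5, a regulator of G protein signalling that marks pericytes in many tissues, was almost absent. It had 1 and 0 fragments with TMP195, against 4 and 2 with vehicle, which gives a ratio of 0.153 with a counting interval of 0.00333 to 1.26. It did not pass the test (limma adjusted p = 0.396), and its fitted log2 fold change, which ran from -3.23 to -0.54 as the pseudocount went from 0.1 to 5, has no settled size.

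Wt1, a zinc finger transcription factor of the epicardium, was the only tested marker without a negative log2 fold change. Its values were 102.8 and 72.9 with TMP195, against 70.2 and 84.3 with vehicle. The groups overlapped, with a vehicle library between the TMP195 libraries. Its change of 0.17 on the log2 scale, with an SE of 0.26 (limma adjusted p = 0.715), became -0.076 without TMP195 1 and 0.41 without TMP195 2. Cd34, a surface sialomucin of endothelium and of interstitial progenitors and fibroblasts, was listed at 0 in all 4 libraries. A 0 in this table need not mean that no transcript was present, since Col1a2 is also listed at 0 in all 4 libraries beside Col1a1, which averaged 48641 with TMP195 and 68209 with vehicle. Cd34 was therefore not tested.

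**Figure D1:**
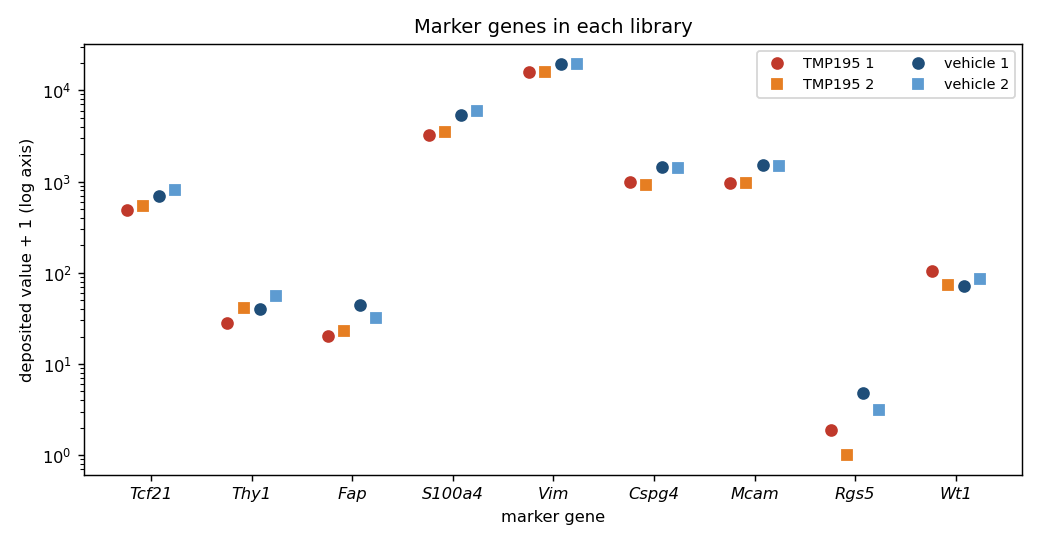
Deposited value plus 1 of the 9 markers with any value above 0, in each of the 4 libraries, on a log axis. Each point is a library, with TMP195 to the left of vehicle for each gene. S100a4, Vim, Tcf21, Cspg4 and Mcam have both TMP195 points below both vehicle points, whereas the points of Thy1 and Wt1 overlap.

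Both TMP195 libraries lay below both vehicle libraries for 7 of the 9 tested markers, against 28.7% of all tested genes, and above both for 0 of the 9, against 28% of all tested genes. The 7 include Rgs5, which cannot count as a fall here. It averaged 0.439 with TMP195 and 2.95 with vehicle, so only its vehicle values brought it to the mean of 1 needed for testing. At the main minimum mean of 1, the calls depended on having all 4 libraries. A fit on 3 of them has 1 residual degree of freedom. Without TMP195 1, Tcf21 no longer passed (adjusted p = 0.109) and the other 4 did. Without TMP195 2, without vehicle 1 and without vehicle 2, all of the 5 lost their calls in limma, while their log2 fold changes stayed negative. In those 3 fits no gene of the whole table passed. The fit was also limited to well covered genes (a mean of at least 100), a choice made after seeing the data. There the log2 fold changes of all 5 stayed negative without each library in turn. Vim ran from -0.31 to -0.28 and S100a4 from -0.80 to -0.66. Each such fit uses the same 3 libraries with 1 residual degree of freedom, so it is no independent check. In the authors' deposited table of lower genes, 4 of the 8 markers with an FPKM value are listed: Mcam (authors' p = 0.00715), Cspg4 (0.00987), S100a4 (0.0338) and Vim (0.0382). That table holds 5.84% of the genes with an FPKM value. In the same authors' deposited table Tcf21 had a p of 0.114 and is not among the lower genes.

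Levels can be compared between genes only per length, for which the authors' FPKM values (fragments scaled to transcript length and library size) were used. S100a4 averaged 851.2 ± 55.2 FPKM with TMP195 and 1411 ± 96.3 FPKM with vehicle (SD, n = 2 each). Vim averaged 707.4 ± 1.25 FPKM with TMP195 and 866.3 ± 14.02 FPKM with vehicle (SD, n = 2 each). These were the most abundant of the set, and the gap between them was narrower with TMP195. Tcf21 had 35.3 FPKM on average with TMP195 and 51.8 with vehicle, Mcam 26.1 with TMP195 and 40.3 with vehicle, and Cspg4 8.63 with TMP195 and 12.8 with vehicle. Each of these genes kept its place in the order in all 4 libraries. The remaining 3 were near the bottom of the scale: Thy1 with 2.13 FPKM with TMP195 and 2.96 with vehicle, Wt1 with 2.57 with TMP195 and 2.26 with vehicle, and Fap with 0.704 with TMP195 and 1.26 with vehicle. The FPKM ranges of Thy1 and Wt1 overlapped within each treatment, so their order is not resolved. Rgs5 and Cd34 have no FPKM value in the table used.

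**Figure D2:**
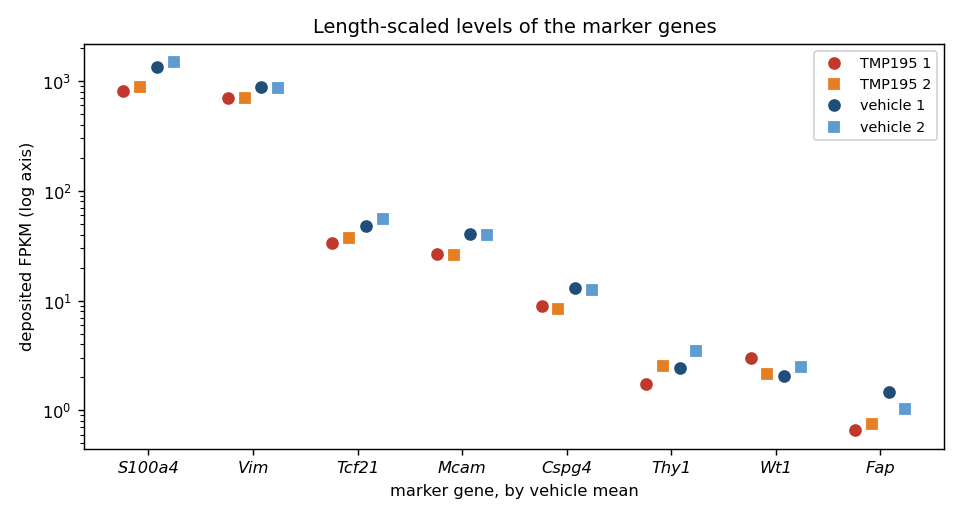
Deposited FPKM of the 8 markers with such a value, in each library, on a log axis, ordered by their vehicle mean. Each point is a library. S100a4 and Vim lie near 1000 FPKM, Tcf21, Mcam and Cspg4 between 8.35 and 55.9, and Thy1, Wt1 and Fap below 3.47.

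The question of a single factor was put in numbers as the inverse variance weighted mean of the log2 fold changes of the 9 tested markers. It was -0.52, a level with TMP195 of 0.695 times that with vehicle. Vim and S100a4 carried 28.5% and 23.2% of the weight. The 95% intervals of 6 of the 9 markers held this value, and those of S100a4, Vim and Wt1 missed it. For Fap, Thy1 and Rgs5 the intervals were so wide that holding the value says little: that of Fap ran from -1.62 to 0.04 and that of Thy1 from -1.20 to 0.27. Of all tested genes, 38.6% had an interval that held the same value, and 16% of the well covered genes.

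**Figure D3:**
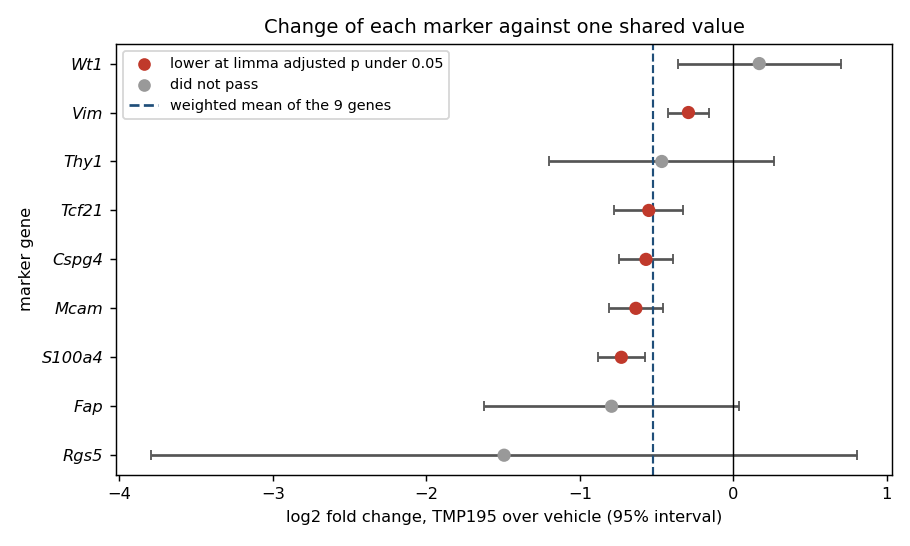
Log2 fold change of TMP195 over vehicle for the 9 tested markers, with the 95% limma interval as bars, and the weighted mean of -0.52 as a dashed line. The interval of Vim lies wholly above the line and that of S100a4 wholly below it, while Tcf21, Cspg4 and Mcam straddle it.

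Set against the weighted mean of the other markers, Vim stood higher by 0.32 on the log2 scale (95% interval 0.16 to 0.49). S100a4 stood lower than the others (difference -0.27, 95% interval -0.44 to -0.09). Wt1 stood higher by 0.71 (0.17 to 1.24). The differences of the other 6 had intervals that included 0. Of the 36 pairs of tested markers, 7 had a 95% interval of the difference that excluded 0, with no adjustment for the number of pairs. Each of the 7 involved Vim or Wt1. Vim differed from S100a4 by 0.44, with S100a4 minus Vim at -0.44 (-0.64 to -0.23), from Cspg4 by 0.28 (0.05 to 0.50) and from Mcam by 0.34 (0.12 to 0.56). Tcf21 minus Vim was -0.26, with an interval that just reached 0 (-0.52 to 0.00). These intervals treat the markers as independent, although they were measured in the same libraries.

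Without Vim, the 4 well covered markers had a weighted mean of -0.64, a level with TMP195 of 0.643 times that with vehicle. The intervals of 0 of their 6 pairs excluded 0. The widest difference among them was between Tcf21 and S100a4, at 0.18 (-0.09 to 0.45). Intervals of this width do not show that the 4 fell alike. The intervals of all 4 held -0.64, and that of Vim did not. Vim was set apart after its value was seen.

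The ratios between markers within each library, which no scaling of the library can move, gave the same order. Vim over Mcam was 16.4 and 16.5 in the TMP195 libraries, against 13.0 and 12.9 in the vehicle libraries. Vim over Cspg4 was 16.1 and 17.1 with TMP195, against 13.6 and 13.7 with vehicle. S100a4 over Vim was 0.203 and 0.223 with TMP195, against 0.271 and 0.306 with vehicle. The ratio of Vim to each of the 4 other well covered markers did not overlap between the treatments. Among the 6 ratios without Vim, 4 overlapped, and 2 did not. The share of ratios that do not overlap was not computed over all genes, so these counts have no background to stand beside. The 4 ratios with Vim all hold the same gene and are not separate results. Cspg4 over Mcam was 1.02 and 0.962 with TMP195, against 0.952 and 0.940 with vehicle. Tcf21 over S100a4 was 0.149 and 0.151 with TMP195, against 0.128 and 0.137 with vehicle. The gap between the nearest libraries of the treatments was also narrow for Tcf21 over Vim, at 0.0303 and 0.0336 with TMP195, against 0.0349 and 0.0418 with vehicle, and wider for the other ratios with Vim.

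**Figure D4:**
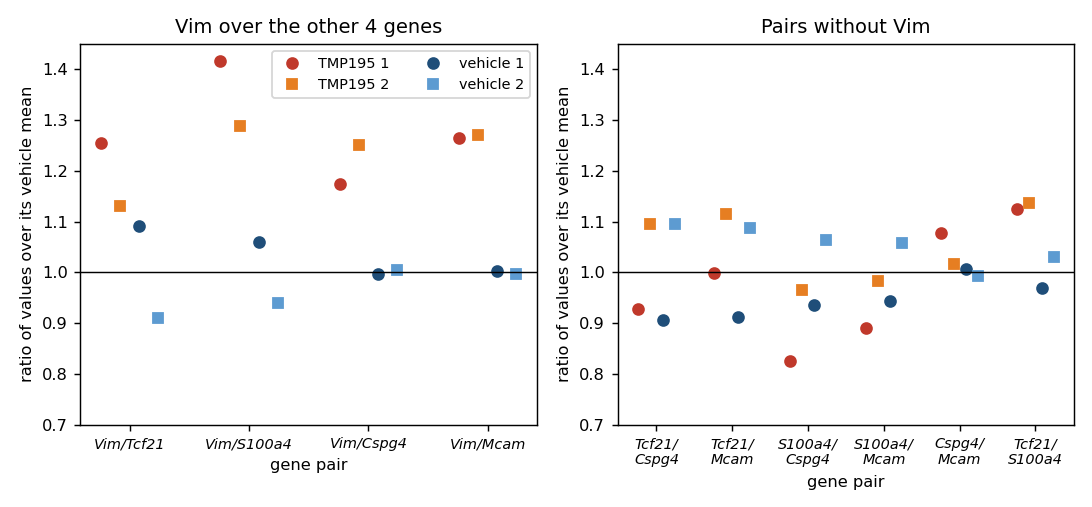
Ratio of the deposited values of a pair of markers in each library, divided by the mean of that ratio in the vehicle libraries, for Vim over the other 4 well covered markers (left) and for the 6 pairs without Vim (right). Each point is a library. In the left panel both TMP195 points lie above both vehicle points for every pair, whereas 4 of the 6 pairs on the right overlap.

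The answer to the question depended on the libraries used. The interval of Vim missed the shared value in every fit except the one without vehicle 2, in which the intervals of all 9 markers held it. S100a4 held the value without TMP195 1, without vehicle 1 and without vehicle 2, and Wt1 held it in the same 3 fits. With 3 libraries the intervals are wider. With the fit limited to well covered genes, Vim missed the value without each library in turn. Those fits also rest on 3 libraries with 1 residual degree of freedom.

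Over all 12689 genes tested, 10.3% were lower and 9.93% higher. Of the 134 genes found from the 9 lists described next, not all of them tested, 48 were lower and 6 higher. Without TMP195 1 these counts were 25 and 2, and without TMP195 2, without vehicle 1 or without vehicle 2 both were 0 in limma, as for the whole table. With all 4 libraries, the well covered genes among other fibroblast markers ran from -1.35 to 0.12 on the log2 scale. No shared value of their own was computed. Of 20 tested genes of a list of other fibroblast markers, 12 were lower, 8 did not pass and 0 were higher (0 higher also at an unadjusted p under 0.05 and by limma-voom), with a median log2 fold change of -0.43 beside -0.01 over all genes tested. Sfrp1, a secreted Wnt antagonist, had a log2 fold change of -1.04 (limma adjusted p = 3.88e-11) and Tbx20, a cardiac transcription factor also active in myocytes, one of -0.74 (6.33e-09). The matrix genes Col3a1 (-0.51) and Col1a1 (-0.49) were lower, with intervals that held the shared value. So was Pdgfra, a growth factor receptor of fibroblasts (-0.43; limma adjusted p = 0.0242). The call of Pdgfra was lost with a pseudocount of 0.1 (adjusted p = 0.0502) and with no filter on low values (0.0926). Dpt, which encodes the matrix protein dermatopontin, was lower, with values of 81.5 on average with TMP195 and 208.9 with vehicle, a log2 fold change of -1.35. By contrast Dcn (-0.06), Ddr2 (-0.05) and Postn (0.12), which encode decorin, a collagen receptor kinase and periostin, did not pass, and their intervals lay above the shared value. Among the 17 well covered genes of this list, 8 had an interval that held it, 6 lay above it and 3 below it.

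Of 14 tested other pericyte markers, 3 were lower and 0 higher (0 higher also at an unadjusted p under 0.05 and by limma-voom). Their median was -0.30. At an unadjusted limma p under 0.05, 4 were lower, against 2004 of all 12689 genes tested. By limma-voom 4 were lower, against 1479 of the 12689. Notch3, the receptor that keeps mural cells differentiated, had a log2 fold change of -0.51 (limma adjusted p = 0.0200), the transcription factor Ebf1 one of -0.53 and Heyl, a target of Notch, one of -0.43. With no filter on low values Notch3 (adjusted p = 0.0731) and Heyl (0.101) were not called, nor was Heyl with a pseudocount of 0.1 (0.0594). Pdgfrb, the receptor through which pericytes are recruited, averaged 2590 with TMP195 and 2478 with vehicle and did not pass (0.06, SE 0.07; limma adjusted p = 0.621). Its interval lay above the shared value, whereas that of Cspg4 and that of Mcam held it. Abcc9, a channel subunit of pericytes that myocytes also use, had -0.17 (limma adjusted p = 0.0982; 0.0419 by limma-voom). Kcnj8, Vtn, Higd1b, Ndufa4l2, Gja4 and P2ry14 had mean values under 10, as Rgs5 did, and Cd248 was listed at 0.

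Of 12 smooth muscle genes, 7 were lower and 0 higher (0 higher also at an unadjusted p under 0.05 and by limma-voom), with a median of -0.39. Synpo2 (-0.69), Acta2 (-0.56), Tagln (-0.48) and Myocd (-0.34) were lower. They encode an actin-binding protein, smooth muscle actin, transgelin and the cofactor myocardin, and neonatal heart muscle cells express several of them. Des, desmin of muscle cells, did not pass (-0.07).

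Markers of other cell types were examined in the same way, and their part in the result for the 10 markers was not tested. Their counts stand beside 10.3% lower and 9.93% higher over all genes tested. A single higher gene in such a short list is near that share. Of 16 endothelial genes, 3 were lower and 1 was higher: the VEGF receptor Kdr (-1.07), the angiopoietin receptor Tek (-0.68) and the TGF-beta coreceptor Eng (-0.29) were lower, and Flt1 (0.66), a VEGF receptor with a soluble decoy form, was higher. The summed endothelial values were 2076 and 2087 with TMP195, against 2614 and 2673 with vehicle. Most of each sum was Eng, with 1374 and 1489 with TMP195, against 1764 and 1734 with vehicle. Pecam1, which did not pass, averaged 25.2 with TMP195 and 28.4 with vehicle, and Cldn5 and Robo4 were listed at 0 in all libraries. The Flt1 call was lost with a pseudocount of 0.1 (limma adjusted p = 0.0515) and with no filter on low values (0.103). Its values were 223.2 and 138.1 with TMP195, against 108.1 and 113.7 with vehicle. The log2 fold change of Flt1 was 0.31 without TMP195 1 and 1.00 without TMP195 2.

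Of 10 epicardial and mesothelial genes, the guidance factor Sema3d (-0.59) and the transcription factor Tbx18 (-0.59) were lower, the keratin Krt18 (0.83) was higher, and the retinoic acid enzyme Aldh1a2 (-0.46; limma adjusted p = 0.0719) was among the 7 that did not pass. The fall of Tbx18 and Sema3d stood beside Wt1, whose groups overlapped. Summed epicardial values were 1832 and 1847 with TMP195, against 2354 and 2303 with vehicle.

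Of 12 immune cell genes, the myeloid integrin Itgam (1.44; limma adjusted p = 0.0436) was higher and 0 were lower (0 also at an unadjusted p under 0.05 and by limma-voom), and the Itgam call was lost by limma-voom (0.0885), with a pseudocount of 0.1 (0.0635) and with no filter on low values (0.0797). Cd68, Fcer1g and C1qa did not pass, with 0.39, 0.35 and -1.08. Summed immune values were 758.4 and 713.6 with TMP195, against 654.3 and 654 with vehicle. Of 7 Schwann and neural genes, the neuronal tubulin Tubb3 (-0.65) and the myelin enzyme Cnp (-0.47) were lower, and Gfap and Ngfr did not pass. Summed values of this list were 456.1 and 494.9 with TMP195, against 656.2 and 633.0 with vehicle. The Cnp call was lost with no filter on low values (0.0532).

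Genes of the heart muscle cells themselves moved in both directions. Of 19 cardiomyocyte genes, 3 were higher and 4 were lower, with a median of -0.06, and the intervals of 17 lay above the shared value. Mybpc3 (0.33) and Tnni3 (0.28), parts of the sarcomere, were higher, and Myh7 (-0.41) and the calcium release channel Ryr2 (-0.40) were lower. The summed values of the 19 were 596790 and 599062 with TMP195, against 634044 and 643635 with vehicle. Genes of the cell cycle had the lowest median of the lists: 15 of 16 were lower and 0 higher (0 higher also at an unadjusted p under 0.05 and by limma-voom), with a median of -1.07. The proliferation antigen Mki67 had a log2 fold change of -1.09, the topoisomerase Top2a one of -1.06, the nucleotide reductase subunit Rrm2 one of -1.08 and the replication helicase subunit Mcm5 one of -1.39. Their list summed to 4468 and 4656 with TMP195, against 9151 and 9078 with vehicle. The intervals of 10 of the 15 well covered cell cycle genes lay below the shared value and those of 0 above it. Which cells of the culture carried these cycling transcripts was not measured, and their part in the fall of the markers was not tested.

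**Figure D5:**
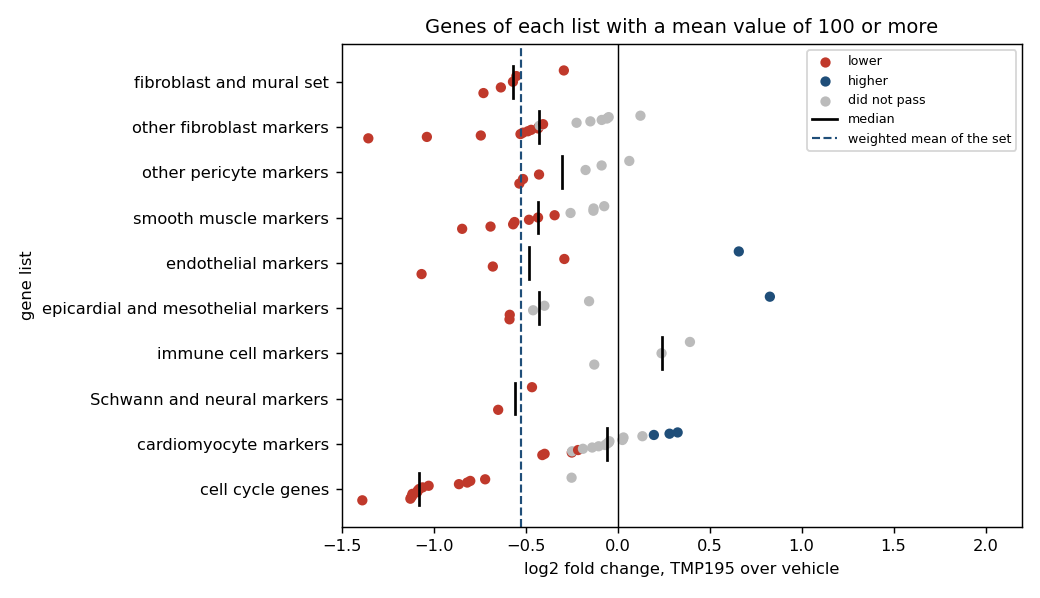
Log2 fold change of TMP195 over vehicle for the genes of each list that averaged at least 100. Each point is a gene, coloured by its limma call, with the median of the list as a black bar and the weighted mean of the 9 tested markers as a dashed line. The fibroblast, pericyte and smooth muscle genes spread from below the dashed line to about 0, the cardiomyocyte genes lie around 0 and the cell cycle genes mostly below the line.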

How the data were processed

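Column-purified total RNA went into Ovation RNA-Seq libraries, per the labels' protocols. The submitters' processing notes name Cufflinks without a version. The sources used here do not give the aligner, genome build or annotation. The deposited values are a signal, read from the values as fragment counts scaled by the authors: between 99.27 and 99.46% of the values up to 10000 were multiples of the value of 1 fragment in that library (tolerance 0.1 fragment). The FPKM values deposited by the authors were used for levels between genes. For 97.0% of 10427 genes they kept a fixed ratio to the scaled counts (log2 tolerance 0.001). The authors' deposited p-value and ratio (fold) of mean FPKM are quoted as theirs.

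Samples were grouped by their titles. The 12689 genes averaging at least 1 were tested with limma 3.58.1 in R 4.3.3, with a trend on log2(value + 1), treatment as the only term, and Benjamini-Hochberg adjustment; degrees of freedom were 2 (residual) and 27.4 (prior). Fold changes on this scale understate changes of low genes. Intervals are at 95%. A chi-square test of fragments between replicates gave 5.98 per gene for the TMP195 pair and 4.90 for the vehicle pair, so no library was a duplicate. Of 143 list genes, 134 were in the table, 1 of them by an older name. The members and lists were chosen with earlier results of these data known, and no set test was run. The genes named are all 10 markers, the 4 tested genes of each list with the smallest p, and Col1a1, Pdgfra and Pdgfrb. Further examples were chosen after their values were seen. The table gives no strand, so overlapping genes cannot be told apart.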

Additional observations from a re-analysis of the deposited data

How the results depend on the processing

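With all 4 libraries, the 5 markers that fell were called lower, and 0 higher, under each alternative run, with adjusted p of at most 0.0362: pseudocounts of 0.1 and 5, no filter or minimum mean values of 10 or 100, scaling by library total or by median ratio, limma-voom, the replicate block and the FPKM values. Median-ratio scaling, the minimum of 100 and the fits that combine it with leaving out a library were added after seeing the data, and the planned TMM factors were not run. No label pairs the replicate numbers, and same-numbered libraries deviated from their group means with a correlation of -0.01. With the replicate block the shared value was -0.53 and 5 markers were lower. The shared value of -0.52 was -0.55 with scaling by library total, -0.60 as an unweighted mean, -0.57 as a median, -0.46 without S100a4, -0.62 without Vim and -0.55 as the unweighted mean of the 5 well covered markers. Without each library in turn it ran from -0.49 to -0.55, and for well covered genes it was -0.57 without TMP195 2 and -0.58 without vehicle 1. In fits without 1 library, the markers called lower numbered 0 to 4 (main 5), all genes lower 0 to 406 (main 1313) and higher 0 to 322 (main 1260), and list genes lower 0 to 25 (main 48) and higher 0 to 2 (main 6). The 0s arose without TMP195 2, without vehicle 1 and without vehicle 2, where 2589 to 2772 genes had an unadjusted p under 0.05. These ranges and 0s belong to the fits at the main minimum mean of 1 and do not cover those limited to well covered genes. In both kinds of fit the log2 fold changes of the 5 markers were negative without each library in turn. Each fit without 1 library has 1 residual degree of freedom, and the lone library is assumed to vary like the other group. List genes higher numbered 3 with no filter and 3 for well covered genes without vehicle 1. Wt1 reversed to -0.076 without TMP195 1 and was 0.41 without TMP195 2. Over the single genes named, 610 alternatives kept direction and call, 145 lost the call, 3 gained it and 1 reversed. At this depth Fap, Thy1 and Rgs5 could not be placed, and Cd34 was not tested.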
